A study of Mus musculus with 5 samples.

Results

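The beta-2 leukocyte integrins are the receptors that white blood cells use to stick to vessel walls, to matrix and to each other. Each is a pair of 1 alpha and 1 beta chain, and an alpha chain of this family reaches the cell surface with the shared beta chain CD18. The 5 genes described here are Itgad, which encodes the alpha chain CD11d, its relatives Itgam (CD11b), Itgax (CD11c) and Itgal (CD11a), and Itgb2, which encodes CD18. They are 5 of the 78334 gene identifiers in the count table, and all 5 had enough counts to enter the model. The set was chosen from its levels in these same libraries, so the values of its members are a description and carry no test.

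Visceral adipose tissue of male mice of the inbred strain C57BL/6 was the source of 5 RNA libraries. The control group had 1 library, from standard chow and vehicle. Per the labels, mice entered the study at 8 weeks of age, daily vehicle or treatment began at 16 weeks of age and lasted 28 days, and tissue was taken after 12 weeks in all. The obesity group had 2 libraries, from mice that ate a high-fat diet (60% of energy as fat) for 8 weeks and then received vehicle. The resveratrol group also had 2 libraries, whose mice ate the same diet and then received the plant polyphenol resveratrol at 2.25 mg/kg by gastric tube daily for 28 days. The obesity and resveratrol groups therefore share the diet, and all groups share sex, strain and labelled tissue. The labels do not say whether each library of a group was a separate mouse, and the spread within a group may be technical. Whether the diet went on during treatment is not given in the sources used here.

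Total counts ran from 19540961 in obesity 1 to 27026597 in the control library. The labelled tissue was checked against marker genes. The summed level of 10 adipocyte genes was 463 CPM (CPM is a gene's count relative to the scaled total of its library) in the control library, 22090 and 24060 in the obesity libraries, and 5945 and 24040 in resveratrol 1 and 2. The control library held 61820 CPM of 10 epididymis genes, and resveratrol 1 held 44020 CPM of 7 smooth muscle genes. Resveratrol 1 also held 3398 CPM of the epididymis genes, of which 3397 CPM was Crisp1, where the obesity libraries and resveratrol 2 held at most 21.6 CPM. These 2 libraries stand apart from the others, and results that rest on them are given with and without them where they can be left out. The control library is the only one of its group, so no comparison with it can be made without it.

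In tissue, the alpha chains divide by cell type. CD11b pairs with CD18 to form the complement receptor of monocytes, macrophages and neutrophils. CD11c marks dendritic cells and macrophages of obese fat, and CD11a forms the adhesion receptor of lymphocytes and of leukocytes in general. CD11d is known from tissue macrophages such as those of the splenic red pulp, and its pair binds the vascular adhesion molecule VCAM-1. The beta chain is needed by all of them, so Itgb2 serves as the family's common partner. The measurements are of RNA and give no level of surface protein.

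The alpha chain genes are related in sequence, Itgad and Itgax most closely. A stretch of their coding sequence is shown because it bears on how far a read can tell Itgad from Itgax. The sequences come from transcripts of the GENCODE M21 annotation on build GRCm38, with positions counted from 1 at the start of the coding sequence. The stretch is centred on the start of the longest run that Itgad and Itgax share. Capitals mark bases that differ from Itgad in the pairwise alignment, and gaps are not drawn. It covers bases 1279 to 1368 of Itgad, 1156 to 1245 of Itgax, 1150 to 1239 of Itgam and 1148 to 1224 of Itgal.
Itgad: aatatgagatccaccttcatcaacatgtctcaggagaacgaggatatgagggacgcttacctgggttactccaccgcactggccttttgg
Itgax: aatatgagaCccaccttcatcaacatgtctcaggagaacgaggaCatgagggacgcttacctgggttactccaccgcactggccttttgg
Itgam: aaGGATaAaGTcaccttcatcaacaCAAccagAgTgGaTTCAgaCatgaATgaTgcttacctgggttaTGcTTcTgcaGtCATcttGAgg
Itgal: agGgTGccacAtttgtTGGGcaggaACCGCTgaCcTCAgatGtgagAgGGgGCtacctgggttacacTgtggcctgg
Among the bases drawn, Itgax differed from Itgad at 2, Itgam at 32 and Itgal at 25. Itgad bases that fall in a gap are not counted. The Itgal line is shorter, so its count cannot be set against that of Itgam. Over the aligned coding sequence Itgad was 76.0% identical to Itgax, 69.4% to Itgam and 66.8% to Itgal. The longest run without a difference was 188 bases between Itgad and Itgax, at coding bases 1324 to 1511 of Itgad, and 16 bases between Itgad and Itgam. A read of 150 bases from within that run fits both genes. Windows were taken from the coding sequence of 1 annotated transcript per member, and the rest of each member was not scanned. Of the 3457 windows of 150 bases of Itgad, 39 (1.1%) were also found in Itgax. Itgal had 0 such windows in any other gene and Itgb2 likewise 0. For Itgam 92.3% of windows were also found in Gm49368, a predicted gene that overlaps it on the same strand, so the Itgam level is uncertain. Gm49368 itself had 7, 2, 1, 0 and 1 counts in the 5 libraries.

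The main contrast within the family lay in Itgad. Its transcript was abundant in both obesity libraries, was at 0 counts in the control library and was low in both resveratrol libraries. The other 4 genes lay within or above the obesity range in resveratrol 2. Itgad (ENSMUSG00000070369) had 4803 and 3293 counts in obesity 1 and 2, which is 251 and 157 CPM. It had 46 and 96 counts, or 2.09 and 3.73 CPM, in resveratrol 1 and 2. The control library's 0 counts allow up to 0.105 CPM, the level of 3 counts there. The groups did not overlap, and the order was obesity above resveratrol above control in every library.

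Mean Itgad was 204 ± 66.3 CPM (SD, n = 2) in obesity and 2.91 ± 1.16 CPM (SD, n = 2) with resveratrol, 70.0 times higher in obesity. The obesity mean was 97.5 times the level of resveratrol 1 and 54.5 times that of resveratrol 2. The fitted log2 difference was -6.12 with a standard error (SE) of 0.53, the 30th lowest of 24779 genes tested, of which 33 (0.133%) lay at -6 or below. Without resveratrol 1 the difference was -5.76 and without resveratrol 2 it was -6.59. Against the control floor of 3 counts, Itgad was at least 1947-fold higher in obesity and at least 27.8-fold higher with resveratrol. In bulk tissue, fewer cells of a type and less RNA per cell cannot be told apart.

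Itgam (ENSMUSG00000030786), the CD11b gene, measured 3.24 CPM in control 1, 73.5 and 47.7 CPM in obesity 1 and 2, and 17.2 and 68.0 CPM in resveratrol 1 and 2. Resveratrol 2 lay between the obesity libraries, and resveratrol 1 lay below both. The group means were 60.6 ± 18.2 CPM in obesity and 42.6 ± 35.9 CPM with resveratrol (SD, n = 2 each). The log2 difference of -0.51 (SE 0.73) was smaller than its error and turned to 0.18 without resveratrol 1.

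Itgax (ENSMUSG00000030789), the CD11c gene, measured 1.43 CPM in control 1, 151 and 180.2 CPM in obesity 1 and 2, and 11.8 and 152 CPM in resveratrol 1 and 2. Resveratrol 2 again lay within the obesity range, and resveratrol 1 was far below it. Its means were 166 ± 20.6 CPM in obesity and 81.7 ± 98.9 CPM with resveratrol (SD, n = 2 each). The log2 difference of -1.02 (SE 1.19) became -0.12 without resveratrol 1 and -3.81 without resveratrol 2.

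Itgal (ENSMUSG00000030830), the CD11a gene, had the most even level of the 5 genes, with 1.59 log2 units between its highest and lowest library against 11.23 for Itgad and 4.5 to 6.98 for the others. It measured 2.96 CPM in control 1, 3.34 and 7.57 CPM in the obesity libraries, and 4.45 and 8.91 CPM in the resveratrol libraries. The groups overlapped, with means of 5.45 ± 2.99 CPM in obesity and 6.68 ± 3.15 CPM with resveratrol (SD, n = 2 each). The log2 difference was 0.29 (SE 0.67), and it turned to -0.17 without obesity 1 and to -0.29 without resveratrol 2.

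Itgb2 (ENSMUSG00000000290), the gene of the shared chain CD18, measured 3.14 CPM in control 1, 224 and 291 CPM in the obesity libraries, and 34.7 and 309 CPM in resveratrol 1 and 2. The highest level of the family's common chain was thus in resveratrol 2, a library in which Itgad was at 3.73 CPM. Means were 258 ± 47.8 CPM in obesity and 172 ± 194 CPM with resveratrol (SD, n = 2 each). The log2 difference was -0.58 (SE 1.05), and it was 0.28 without resveratrol 1 and -2.88 without resveratrol 2.

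**Figure D1:**
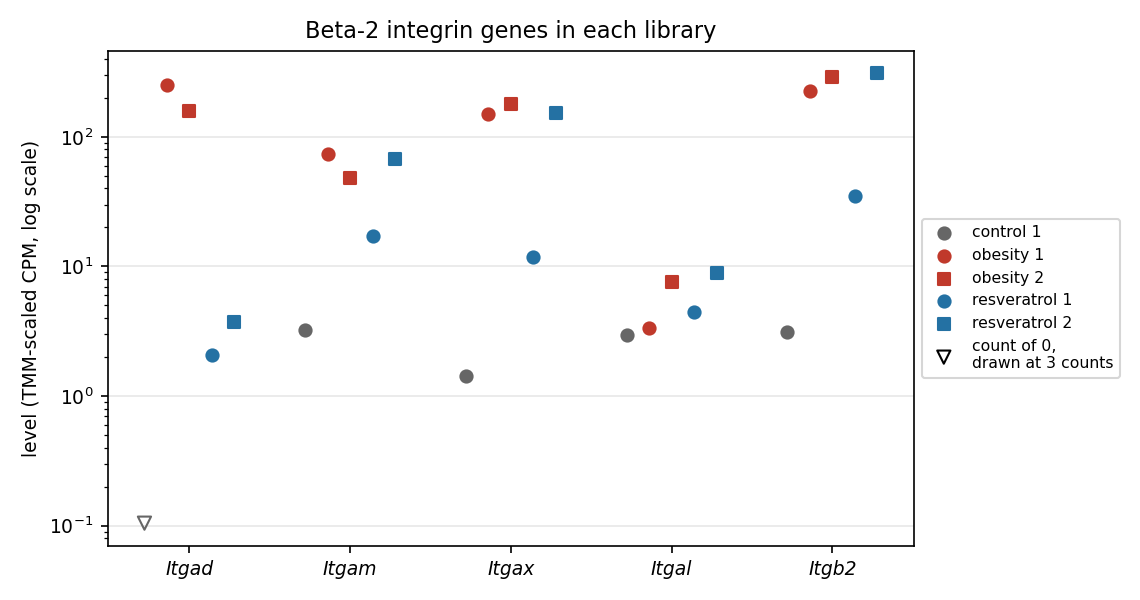
Level of each beta-2 integrin gene in each library, in TMM-scaled CPM on a log axis, with 1 point a library (circles replicate 1, squares replicate 2) and an open triangle for a count of 0 drawn at the level of 3 counts. Both resveratrol points lie far below both obesity points for Itgad, at 2.09 and 3.73 CPM against 251 and 157 CPM, while resveratrol 2 lies beside or above an obesity point for the other 4 genes.

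Set against its own obesity mean, each member gave a different picture in the 2 resveratrol libraries. Itgad stood at 1.03% of the obesity mean in resveratrol 1 and 1.83% in resveratrol 2. Itgax stood at 7.11% and 91.5%, Itgb2 at 13.5% and 120.0%, and Itgam at 28.4% and 112%. Itgal stood at 81.6% and 163%. Itgad was the 1 member of 5 with both resveratrol libraries below both obesity libraries, and 16.7% of all genes tested lay that way. The set was chosen on this contrast, so nothing is read from that share.

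Leukocyte and fat genes were also low in resveratrol 1. The median of 6 pan-leukocyte markers was 15.1% of the obesity level in resveratrol 1 and 95.1% in resveratrol 2, and that of 10 macrophage markers at 19.7% and 109%. The adipocyte list stood at 25.4% and 115%. Itgam, Itgax and Itgb2 lay near these medians in resveratrol 2 and Itgad did not. The part of these markers in the members' levels was not tested.

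Of 6 genes that mark the subcutaneous fat depot, 4 were lower in both resveratrol libraries than in both obesity libraries, as Itgad was and as 16.7% of all genes were. Hoxc8, at 119.8 CPM in resveratrol 2 against 101 and 96.1 CPM in obesity, was not among them. All 6 genes had a negative fitted difference, against 47.2% of all genes. The 5 genes with an obesity mean of at least 1 CPM had medians of 6.09% and 11.8% of that mean in resveratrol 1 and 2. Shox2, left out of these medians for its low level, stood at 10.1% and 112%. Hoxc10, a homeobox gene of posterior body regions, measured 23.3 and 26.2 CPM in the obesity libraries, 1.04 and 0.35 CPM in the resveratrol libraries and 1.5 CPM in control 1. En1, a homeobox gene, was at 4.49 and 3.43 CPM in obesity, at 0 counts in resveratrol 1 and the control library, and at 0.467 CPM in resveratrol 2. The 5 genes of intra-abdominal fat and its mesothelial lining had a positive fitted difference, as did 52.8% of all genes, and 1 of them, the mesothelial transcription factor gene Wt1, was higher in both resveratrol libraries, at 1.41 and 1.28 CPM in obesity and 2.32 and 11.8 CPM with resveratrol. Upk3b, a gene of the mesothelial surface, was below both obesity libraries in resveratrol 1 and above both in resveratrol 2, at 2.50 and 108 CPM against 23.6 and 6.00 CPM. For Itgad, the treatment and the depot that was sampled cannot be told apart.

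**Figure D2:**
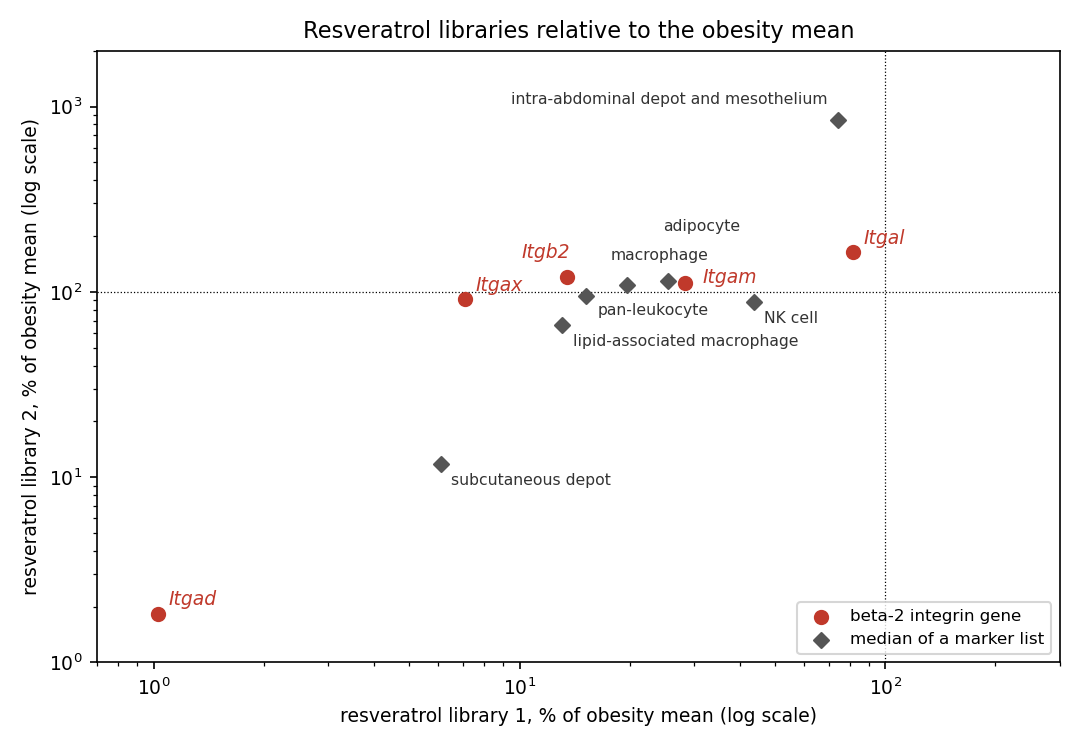
Level in resveratrol 2 against level in resveratrol 1, each as a percentage of the obesity mean on log axes, for the 5 integrin genes (red circles) and for the median of marker lists (grey diamonds), with dotted lines at 100%. Each median covers the genes of a list with an obesity mean of at least 1 CPM. Itgax, Itgb2 and Itgam lie near the leukocyte, macrophage and adipocyte lists, and Itgad, at 1.03% and 1.83%, lies below the subcutaneous depot list at 6.09% and 11.8%.

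The alpha chain genes can be set against each other within a library, by the share each takes of their summed counts. Itgad made up 52.4% of 9171 alpha chain counts in obesity 1 (95% exact binomial interval 51.3% to 53.4%). It made up 39.97% (38.9% to 41.0%) of 8239 counts in obesity 2. With resveratrol it made up 5.88% (4.34% to 7.77%) of 782 counts in resveratrol 1 and 1.61% (1.30% to 1.96%) of 5969 counts in resveratrol 2. Both resveratrol shares lay below both obesity shares. The control library had 0 of 219 alpha chain counts for Itgad, which allows a share of up to 1.37%. Intervals and floors cover counting error only, since the reads carry no molecular identifiers. They do not cover the uncertain level of Itgam, whose windows also fit Gm49368, and every share rests on that level.

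Itgax took the largest share of the alpha chain counts in resveratrol 2, at 65.3% (64.1% to 66.5%), against 31.6% (30.6% to 32.5%) and 45.9% (44.9% to 47.0%) in the obesity libraries. In resveratrol 1 Itgam took the largest share, at 48.5% (44.9% to 52.0%). In the control library, Itgam and Itgal took 42.5% (35.8% to 49.3%) and 38.8% (32.3% to 45.6%), with overlapping intervals. Itgal made up 0.698% (0.538% to 0.890%) in obesity 1 and 3.84% (3.36% to 4.36%) in resveratrol 2. The leading alpha chain was therefore Itgad in obesity 1, Itgax in obesity 2 and resveratrol 2, and Itgam in resveratrol 1.

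**Figure D3:**
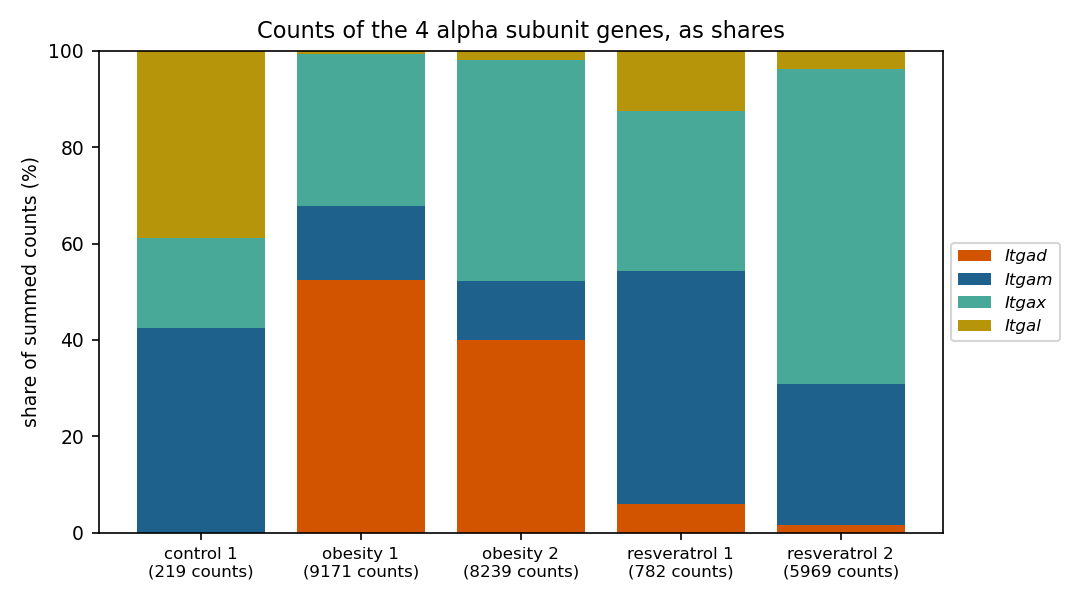
Share of the summed counts of the 4 alpha chain genes taken by each gene, in percent, with 1 bar a library and the summed count under each bar. Itgad takes 52.4% and 39.97% in the obesity libraries, 5.88% and 1.61% in the resveratrol libraries and none in the control library.

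Levels can be compared between genes once they are divided by exon length. On that scale, in CPM per kilobase of annotated exon, Itgad was at 55.6 and 34.8 in the obesity libraries against 73.3 and 95.4 for its partner Itgb2. Itgax was at 31.4 and 37.5, Itgam at 14.6 and 9.49, and Itgal at 0.508 and 1.15. The order of Itgad and Itgax differed between the obesity libraries, so these 2 genes cannot be ranked. Both lay above Itgam as counted, but its level is uncertain because 92.3% of its windows also fit Gm49368. Itgal was lowest in both libraries. In resveratrol 2 the same scale gave 101 for Itgb2, 31.6 for Itgax, 13.5 for Itgam, 1.36 for Itgal and 0.828 for Itgad. In resveratrol 1 it gave 11.4, 2.45, 3.43, 0.678 and 0.463 in that order of genes. Itgad was thus the lowest alpha chain gene as counted in both resveratrol libraries. In resveratrol 1 this rested on 46 Itgad counts and 98 Itgal counts, and their counting intervals overlapped on this scale. The order of Itgad and Itgal there is uncertain. In the control library all 5 genes lay between 0 and 1.03, with Itgb2 at 1.03, Itgam at 0.646, Itgal at 0.451 and Itgax at 0.298.

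The ratio of an alpha chain gene to Itgb2 sets it against the chain it needs. Itgad counts per Itgb2 count were 1.12 and 0.538 in the obesity libraries and 0.0602 and 0.0121 in resveratrol 1 and 2. The mean ratio was 22.9 times higher in obesity, a log2 difference of -4.52 for resveratrol that was -6.10 without resveratrol 1. Per count of Ptprc, the gene of the leukocyte surface phosphatase CD45, it was 21.2 times higher, and per count of Adgre1, the gene of the macrophage marker F4/80, 15.3 times higher. Between the 2 resveratrol libraries, the ratio to Itgb2 was lower in resveratrol 2 although its Itgad level was higher. In the control library 0 Itgad counts beside 90 Itgb2 counts allow a ratio of up to 0.0333, which lies below both obesity ratios and above that of resveratrol 2.

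The other alpha chains differed in how they followed Itgb2. Itgax counts per Itgb2 count were 0.456 in the control library, 0.675 and 0.619 in the obesity libraries, and 0.339 and 0.490 in resveratrol 1 and 2. Both resveratrol ratios were below both obesity ratios here too, though the mean ratio in obesity was only 1.56 times higher. Itgam per Itgb2 was 1.03 in the control library, 0.329 and 0.164 in obesity, and 0.496 and 0.220 with resveratrol, so the groups overlapped. Itgal per Itgb2 was 0.944 in the control library, 0.0149 and 0.026 in obesity, and 0.128 and 0.0288 with resveratrol, so both resveratrol ratios were above both obesity ratios.

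Against the control library, all 5 members stood higher in both obesity libraries, and 40.8% of all genes tested lay that way. Both resveratrol libraries also lay above the control for all 5 members, against 37.7% of all genes. In obesity Itgax was 116 times, Itgb2 82.1 times, Itgam 18.7 times and Itgal 1.84 times the control level. Their fitted log2 differences were 6.85 (SE 2.11), 6.36 (SE 1.83), 4.22 (SE 1.13) and 0.88 (SE 0.85). In resveratrol against control these were 5.83 (SE 2.00), 5.77 (SE 1.78), 3.71 (SE 1.10) and 1.17 (SE 0.87). Without resveratrol 2 they were 3.06 for Itgax, 3.49 for Itgb2, 2.43 for Itgam and 0.61 for Itgal, and without resveratrol 1 they were 6.75, 6.64, 4.41 and 1.61. Itgal in obesity against control was 0.18 without obesity 2, 1.37 without obesity 1 and 0.22 with a block for the replicate number. Obesity and resveratrol are compared with the same control library, so the sets of differences are not independent. Pan-leukocyte markers summed to 388 CPM in the control library, of which 335 CPM was Lcp1, an actin-bundling protein gene, and reached 1378 and 1530 CPM in obesity 1 and 2. The low level of fat and leukocyte genes in the control library and the diet cannot be told apart for these genes.

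Itgad lies next to Itgax and Itgam in one cluster, and other genes are annotated across it. In the GENCODE M21 order, Itgam, Gm49368 and Itgax come before Itgad, and Cox6a2, 9130023H24Rik and Armc5 come after it. Cox6a2, the heart and muscle form of a cytochrome c oxidase subunit, and the 4931431B13Rik and Gm44850 transcripts overlap the Itgad model on the opposite strand. Cox6a2 was at 9.44 and 7.47 CPM in the obesity libraries, 0.409 and 0.817 CPM in the resveratrol libraries and 0.0697 CPM in the control library. 4931431B13Rik was at 17.1 and 12.0 CPM in obesity, 0.136 and 0.389 CPM with resveratrol and 0 counts in control. Gm44850 was at 4.85 and 2.38 CPM in obesity and had 1 and 4 counts with resveratrol. All 3 were higher in both obesity libraries than in any other, with log2 differences of -3.77, -5.75 and -5.07 in resveratrol against obesity. Gm39091 on the opposite strand and the pseudogene Gm17831 on the same strand also overlap Itgad. Each had at most 1 count in any library.

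The kit keeps strand, but the strand setting of the counting is not given in the sources used here, so reads from Itgad and from these opposite-strand genes cannot be told apart. In obesity 1, Cox6a2, 4931431B13Rik and Gm44850 had 181, 327 and 93 counts beside 4803 for Itgad. The next genes outward had narrower ranges. 9130023H24Rik was between 5.49 and 7.99 CPM in all 5 libraries, and Armc5, an armadillo repeat protein gene, was between 30.3 and 55.1 CPM with a log2 difference of 0.26. Around Itgal, which lies elsewhere, the 3 coding genes on either side had log2 differences from -0.75 for Sephs2 to 0.73 for 9130019O22Rik.

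**Figure D4:**
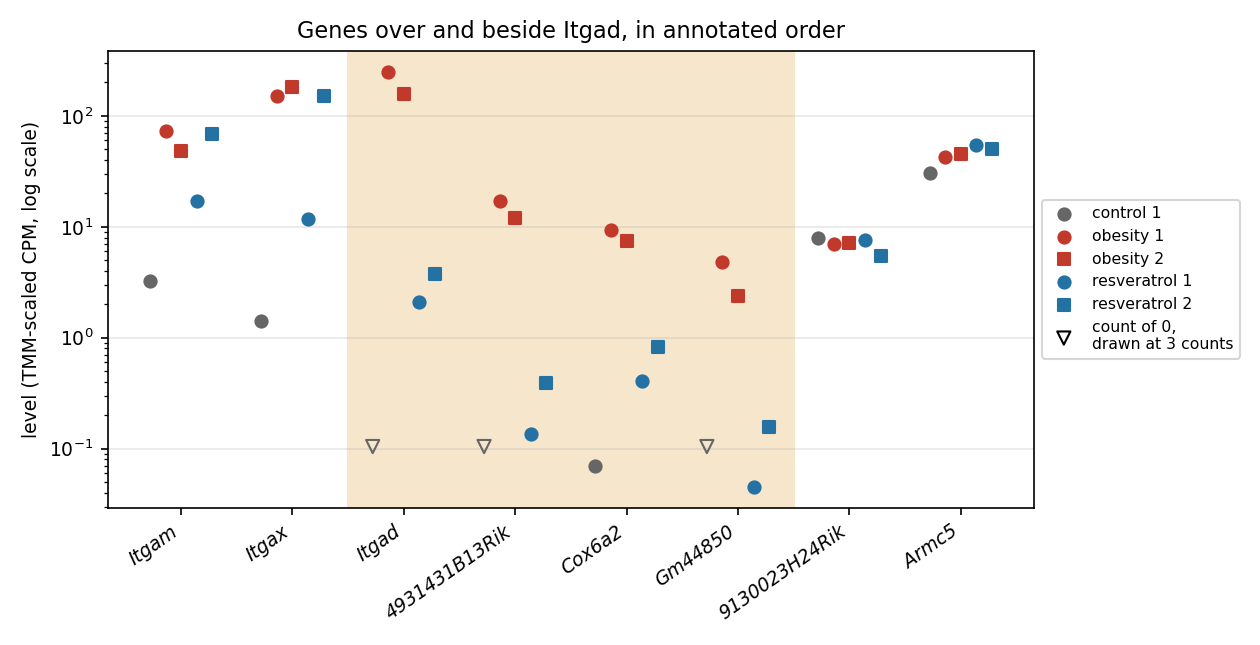
Levels of genes over and beside Itgad in annotated order, in TMM-scaled CPM on a log axis, with 1 point a library and open triangles for counts of 0 drawn at 3 counts. The shaded columns hold Itgad and 3 of the opposite-strand genes that overlap it, all high in obesity and low in the other libraries. Armc5 stays between 30.3 and 55.1 CPM.

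Myeloid transcription factors, some of which act on integrin promoters, were listed as 10 genes. Of these, 9 had a positive fitted difference in obesity against control, as did 46.9% of all genes. In edgeR's test 4 of them had an unadjusted p under 0.05 on the higher side, where 12.6% of all genes did. Spi1, which encodes the factor PU.1 of the myeloid and B lineages, measured 6.87 CPM in control 1, 146 and 151 CPM in the obesity pair, and 30.9 and 131 CPM in resveratrol 1 and 2. Its log2 difference was 4.43 (SE 1.15) in obesity against control and -0.87 (SE 0.74) in resveratrol against obesity. Nr1h3, the oxysterol receptor LXR alpha, was at 163 and 159 CPM in obesity and 22.4 and 142 CPM with resveratrol. Spic, a factor of red pulp macrophages, was low throughout, at 1.83 and 1.00 CPM in obesity and 0.50 and 0.70 CPM with resveratrol. Of the 10 factors 9 had a negative difference in resveratrol against obesity, with a median of -0.87 against 0.05 for all genes, and 7 lay lower without overlap, where 16.7% of all genes did. The median factor was at 17.2% of the obesity level in resveratrol 1 and at 90.7% in resveratrol 2. In resveratrol against obesity 0 of the 10 had an unadjusted p under 0.05 in edgeR's quasi-likelihood test, where 0.428% of genes did on the lower side, and DESeq2 called 0. Cebpa alone held 941.5 of the list's 1824 CPM in obesity 1 and 1400 of 2373 CPM in obesity 2. Adipocyte genes were also low in control 1 and in resveratrol 1. Which cells carried these factors was not tested, so their counts are not read as a myeloid measure.

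The promoters of Itgam and Itgax are shown because PU.1 is a factor of myeloid cells, and only these 2 of the 5 members were in the promoter table (RefSeq, build GRCm38.p6). Each line gives the 250 bases before the gene's start on the + strand. Capitals mark matches to GAGGAA, the purine core bound by PU.1 in many myeloid promoters, or to its reverse complement TTCCTC.
Itgam chr7:128062390-128062639: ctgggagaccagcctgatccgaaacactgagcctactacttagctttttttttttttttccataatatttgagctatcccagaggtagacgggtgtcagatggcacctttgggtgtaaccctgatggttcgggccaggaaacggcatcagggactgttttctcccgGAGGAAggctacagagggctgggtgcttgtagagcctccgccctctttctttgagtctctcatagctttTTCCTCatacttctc
Itgax chr7:128129300-128129549: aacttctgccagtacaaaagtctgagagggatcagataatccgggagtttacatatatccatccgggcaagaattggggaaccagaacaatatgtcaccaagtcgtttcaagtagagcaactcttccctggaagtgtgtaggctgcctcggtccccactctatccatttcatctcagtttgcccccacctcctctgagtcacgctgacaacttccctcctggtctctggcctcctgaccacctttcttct
Itgam held 1 match on each strand and Itgax 0. Of 32851 promoters of this length, 23.3% held at least 1 match on either strand. A match is a description of letters and shows no binding.

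Across the rest of the integrin family, no subunit gene other than Itgad had a fitted difference below -1.02 in resveratrol against obesity. Of 14 other alpha subunit genes, 9 had a positive fitted difference, as did 52.8% of all genes, and 5 a negative one, with a median of 0.35. Of these, 3 had an unadjusted p under 0.05 on the higher side, where 1.92% of all genes did, and none on the lower side. Itga3, a laminin receptor chain, was at 99.3 and 28.1 CPM with resveratrol, 13.9 and 8.04 CPM in obesity and 84.9 CPM in control (log2 difference 2.53, SE 0.75). Itga9, a chain of lymphatic and smooth muscle cells among others, measured 48.2 and 23.5 CPM in the resveratrol pair and 16.5 and 12.5 CPM in the obesity pair (1.31, SE 0.46). Itga8, a chain of smooth muscle and other contractile cells, was at 11.3 and 1.79 CPM against 0.991 and 0.571 CPM (3.06, SE 1.09). All 3 were higher in resveratrol 1, the library with abundant smooth muscle transcripts, than in resveratrol 2, and the part of those transcripts was not tested. After adjustment edgeR's test called 0 genes of the whole table, with a smallest adjusted p of 0.899 and 581 genes at an unadjusted p under 0.05. By DESeq2, 1.16% of the genes it gave an adjusted p were called higher and 0.117% lower, 219 in all, and by limma-voom 0, with 0 of them among the other integrin subunits.

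Among 8 other beta subunit genes, 6 had a positive difference, as did 52.8% of all genes. In edgeR's test 0 of the 8 had an unadjusted p under 0.05, where 1.92% of all genes did on the higher side and 0.428% on the lower. DESeq2 called 0 of them. Itgb1, the most widely shared beta chain, was at 473 and 496 CPM in obesity and 867 and 542 CPM with resveratrol. Itgb7, the partner of Itga4 and Itgae on lymphocytes, was at 16.1 and 24.2 CPM against 9.31 and 32.2 CPM. In obesity against control, 3 other alpha genes were higher and 3 lower by an unadjusted p under 0.05, and 2 beta genes were higher, where 12.6% of all genes were higher and 11.7% lower. Itga7, a laminin receptor chain of muscle, measured 9.45 CPM in control 1 but 324 and 439.6 CPM in the obesity pair (5.33, SE 0.75). Itgae, the CD103 chain, went the other way, with 29.8 CPM in control 1 but 1.62 and 2.62 CPM in the obesity pair. Control 1 held 61820 CPM of epididymis genes, and the part of those cells in its Itgae level was not tested. After adjustment edgeR's test called 0 genes of the whole table, with a smallest adjusted p of 0.0999. Before adjustment 6018 genes had a p under 0.05 there, limma-voom called 0, and DESeq2 called 12.8% of genes higher and 8.8% lower, 4524 in all. Those calls took in 4 other alpha genes higher, Itga7 among them, 3 lower, Itgae among them, and 2 beta genes higher.

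**Figure D5:**
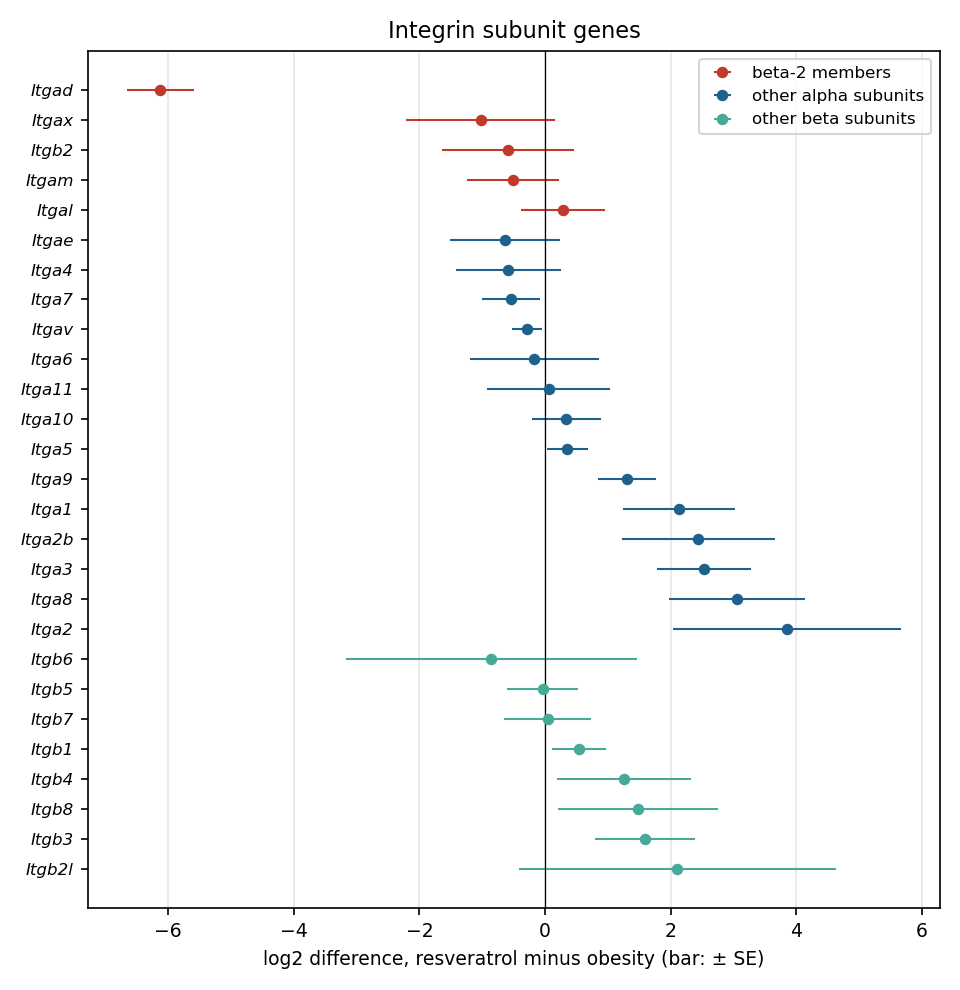
Fitted log2 difference of resveratrol minus obesity (horizontal axis) for each integrin subunit gene, with a bar of 1 SE to each side, from the model over all 5 libraries. Itgad lies at -6.12, and the other 26 genes lie between -1.02 for Itgax and 3.85 for Itga2.

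The ligands of the family did not share one direction. Of 17 ligand genes 16 could be tested, since Icam4 had 0 counts in every library. Of these, 12 had a positive difference in resveratrol against obesity, as did 52.8% of all genes, and 4 a negative one. Icam1, the main endothelial ligand of the CD11a and CD11b receptors, measured 11.7 CPM in control 1, 17.4 and 21.1 CPM in the obesity pair, and 10.2 and 27.4 CPM with resveratrol. Vcam1, which encodes a ligand of the CD11d receptor, measured 4.99 CPM in control 1, 32.5 and 39.99 CPM in the obesity pair, and 13.3 and 30.5 CPM with resveratrol. Icam1 levels overlapped between obesity and resveratrol. Both Vcam1 levels with resveratrol lay below both in obesity, with a log2 difference of -0.73 (SE 0.48). Fn1, the fibronectin gene, was the 1 ligand with an unadjusted p under 0.05 in edgeR's test, where 1.92% of all genes had one on the higher side. Fn1 measured 605 and 1593 CPM in the resveratrol pair and 197 and 286 CPM in the obesity pair (2.19, SE 0.66). In obesity against control 4 ligand genes were higher and 1 lower by that threshold, where 12.6% and 11.7% of all genes were, and DESeq2 called 4 higher and 1 lower. They included Vcam1 (2.86, SE 0.69) and Thy1, a surface glycoprotein gene of stromal cells, with 17.8 CPM in control 1 but 81.2 and 44.0 CPM in the obesity pair.

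Genes that switch integrins on and carry their signal were listed as 27 genes. Fermt3, the blood-cell kindlin that binds the beta chain's tail, measured 7.18 CPM in control 1, 78.8 and 95.9 CPM in the obesity pair, and 18.8 and 92.7 CPM in resveratrol 1 and 2. Tyrobp, the signalling adaptor DAP12, was at 165 and 158 CPM in obesity and 27.3 and 125 CPM with resveratrol, and 6.59 CPM in control. Of the 27 genes, 19 had a negative difference in resveratrol against obesity, with a median of -0.42, where 47.2% of all genes had one, and 9 lay lower without overlap, where 16.7% of all genes did.

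In resveratrol against obesity 1 of the 27 had an unadjusted p under 0.05 in edgeR's test, on the higher side, where 1.92% of all genes did. DESeq2 called 0 of the 27, against 1.16% of its genes called higher and 0.117% lower. Rasgrp2, an exchange factor that activates the integrin regulator RAP1, was at 84.4 and 82.4 CPM with resveratrol, 44.1 and 52.3 CPM in obesity and 12.1 CPM in control (0.79, SE 0.23). In obesity against control, 13 of the 27 were higher and 1 lower by an unadjusted p under 0.05, where 12.6% and 11.7% of all genes were, and DESeq2 called 14 higher and 1 lower. The lower one was Skap1, an adaptor of T cells, with 45.9 CPM in control 1 but 0.365 and 0.809 CPM in the obesity pair. T cell markers summed to 6.03 CPM in control 1 beside 61820 CPM of epididymis genes. Which cells carried Skap1 there was not tested. In resveratrol against control 9 were higher and 1 lower, where 10.5% and 8.05% of all genes were. In that comparison edgeR's test called 0 genes, with a smallest adjusted p of 0.134 and 4596 genes at an unadjusted p under 0.05. By DESeq2, 10.3% of genes were called higher and 5.17% lower, 3085 in all, and by limma-voom 80 genes.

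Markers of the cells that carry these integrins give the setting of each member. Adgre1 measured 6.63 CPM in control 1, 259 and 239 CPM in the obesity pair, and 23.4 and 223 CPM in resveratrol 1 and 2. Ptprc was at 3.87, 91.2, 105, 12.9 and 101 CPM in the same order. The 10 macrophage markers all had a negative fitted difference in resveratrol against obesity, where 47.2% of all genes had one, and 4 of them lay lower without overlap, where 16.7% of all genes did. Their summed levels were 3077 and 2863 CPM in obesity and 532 and 3346 CPM in resveratrol 1 and 2. Markers of splenic red pulp macrophages, the cells best known for CD11d, summed to 92.1 and 162 CPM in obesity and 26.03 and 153 CPM with resveratrol. Siglec1 made up 43.9 and 104 CPM of this in obesity and 7.00 and 74.4 CPM with resveratrol. Vcam1 made up a further 32.5 and 39.99 CPM in obesity and 13.3 and 30.5 CPM with resveratrol. Spic was at most 1.83 CPM in any library, so the sum gives no measure of red pulp macrophages. Of the 6 genes of this list, 5 had a negative fitted difference in resveratrol against obesity, where 47.2% of all genes had one. Cd5l had a positive one, at 1.88 and 3.19 CPM in obesity and 0.772 and 34.7 CPM with resveratrol. Of 8 neutrophil genes the sum stayed between 2.62 and 21.0 CPM, with the defining marker Ly6g at 0 counts in every library. T cell markers summed to 5.58 to 10.5 CPM over the 5 libraries. The share of these cell types in the members' levels was not tested.

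The genes whose pattern over the 5 libraries was nearest to Itgad were found by the distance between centred log2 CPM profiles, among 14039 genes. The nearest were Ubd, a ubiquitin-like protein gene, and Mmp3, a matrix protease gene, each at a distance of 3.32. Kcnj14, a potassium channel gene, came next at 3.60, followed by the choline transporter gene Slc5a7 at 3.71 and the serotonin synthesis gene Tph2 at 3.76. Ubd was at 434 and 244 CPM in the obesity libraries, 7.18 and 89.9 CPM in resveratrol 1 and 2, and 0.663 CPM in control. In all 5 genes resveratrol 2 kept more of the obesity level than Itgad did. None of the 5 remained when likeness was ranked by Pearson's correlation, nor did any of the genes named next for the other members, so these lists depend on the measure.

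By the same distance the other members had closer neighbours. The nearest to Itgb2 were Serpina3c at 0.185, Fgf13 at 0.224 and Angptl4, a lipase inhibitor gene of fat, at 0.262. The nearest to Itgax were Ucp3 at 0.199, Pnpla3 at 0.296 and Atp8b4 at 0.369, and those to Itgam were Cd55 at 0.281, Cables1 at 0.391 and H2-Eb1 at 0.403. Itgal was nearest to Sp2 at 0.329, Ttpa at 0.426 and Rbm41 at 0.440. Within the family, Itgax and Itgb2 lay 0.773 apart and Itgam and Itgb2 2.08 apart. Itgad lay 5.11 from Itgax, 5.59 from Itgb2, 6.64 from Itgam and 9.20 from Itgal. Itgal also lay far from some relatives, at 3.13 from Itgam, 4.83 from Itgb2 and 5.32 from Itgax. These distances are over 5 libraries that include the 2 that stand apart, and they describe likeness of levels alone.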

How the data were processed

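RNA of 5 visceral adipose libraries was measured with a stranded poly-A kit and paired reads of 150 bases, per the labels' protocols. The deposited table holds whole-number read counts for 78334 Ensembl identifiers. Per the submitters' processing notes, the authors used FastQC, featureCounts and build GRCm39. Not given in the sources used here are the aligner, annotation release, strand setting and versions. Symbols were matched for 65.7% of identifiers. Reference sequences, gene order and exon lengths come from GENCODE M21 and RefSeq on GRCm38, so no coordinates were read into the counts.

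Groups follow the sample titles. Counts were scaled with TMM and fitted over all 5 libraries with edgeR 4.0.16 in R 4.3.3 (robust quasi-likelihood F test, filterByExpr with a minimum count of 10 and total of 15, Benjamini-Hochberg at 0.05 over 24779 genes). Having no replicate, the control library takes its spread from the other groups. The SE is the absolute log2 difference over the square root of F. A count of 0 was given a floor of 3 counts, from 0.105 to 0.157 CPM, so that folds against it are given as lower bounds. Total counts of 19540961 to 27026597 set that precision. Shares have exact binomial intervals.

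The 5 members and the gene lists were chosen with earlier results of these data known, and the fit was tested on simulated counts. Named pathway genes are those with an unadjusted p under 0.05, of which a selection is given, plus Icam1, Vcam1, Fermt3 and Spi1. Marker genes and other pathway genes given beside them were chosen after their values were seen. Nearest genes needed a mean of at least 1 CPM, and log2 profiles used a prior count of 2. Alternatives were RLE factors, library totals, other filters, DESeq2 1.42.0, limma-voom (limma 3.58.1), a replicate block, a non-robust fit, a fit of only the groups compared, and fits without each library. The fit without the control library and resveratrol 1 together, and the Itgad to Itgb2 ratio without resveratrol 1, were added after seeing the data. Alignments used biopython 1.88 and figures matplotlib 3.10.9 in Python 3.11.15. Values of 2 genes of the pathway lists are not reported here.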

Additional observations from a re-analysis of the deposited data

How the results depend on the processing

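The count of genes called over the whole table depended on the test and on single libraries, and the order of Itgad between groups did not change under any alternative run. In resveratrol against obesity the 0 genes called became 25 with no filter, 219 with DESeq2 and 66 without the control library and resveratrol 1 together, and ranged from 0 to 4758 when 1 library was left out (33 without resveratrol 1, 4758 without resveratrol 2). In obesity against control 0 became 2575 with no filter, 4524 with DESeq2 and 9269 with only the groups compared, and ranged from 0 to 9227 when 1 library was left out (9227 without resveratrol 1, 9094 without resveratrol 2). In resveratrol against control 0 became 1671 with no filter, 3085 with DESeq2 and 80 with limma-voom, and ranged from 0 to 7469 when 1 library was left out (7469 without resveratrol 1, 4199 without resveratrol 2). The cause was not tested. The median of all genes in obesity against control was -0.105 with TMM, -0.159 with RLE factors and -0.228 with library totals, a shift far smaller than the members' differences other than that of Itgal.

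The Itgad difference in resveratrol against obesity stayed between -6.13 and -6.11 with all libraries and between -6.59 and -5.74 when 1 was left out. Itgam turned from -0.51 to 0.18 (range -1.81 to 0.18 when 1 library was left out) and Itgb2 from -0.58 to 0.28 without resveratrol 1, and to 0.18 and 0.27 without the control library as well. Itgal turned to -0.17 without obesity 1 and to -0.29 without resveratrol 2. Itgax and Itgb2 moved to -3.81 and -2.88 without resveratrol 2. In resveratrol against control Itgax and Itgb2 moved to 3.06 and 3.49 without resveratrol 2. The log2 ratio of Itgad to Itgb2 of -4.52 was -4.41 per Ptprc, -3.94 per Adgre1 and -6.10 without resveratrol 1. The libraries share replicate numbers only as numbers, with a correlation across genes of 0.28 between the deviations of same-numbered libraries. With a replicate block 0 genes were called in each comparison. In resveratrol against obesity under the block, 1184 genes had an unadjusted p under 0.05, Itgad was at -6.13, Itgax at -1.96 and Itgb2 at -1.30. In obesity against control under the block, Itgax was at 6.10 and Itgb2 at 5.62. In the control library Itgad had 0 counts and no member more than 93, so ratios and shares there rest on few counts.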

Other observations

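Markers of further cell types were summed in each library, in the order control, obesity 1, obesity 2, resveratrol 1 and resveratrol 2. B cell markers summed to 0.558, 5.43, 5.43, 6.50 and 27.0 CPM, and mast cell markers to 22.9, 31.9, 19.8, 117 and 60.8 CPM. All 5 mast cell genes lay higher in both resveratrol libraries than in both obesity libraries, where 16.9% of all genes did. NK cell markers summed to 206, 5.06, 13.5, 4.59 and 7.70 CPM, and in the control library 205 CPM of this was Klrb1c alone. Dendritic cell markers, the cells besides macrophages best known for CD11c, summed to 8.09, 35.8, 41.5, 13.5 and 48.2 CPM. Monocyte markers summed to 132, 80.5, 144, 352 and 102 CPM, of which Plac8 alone made up 113 CPM in the control library and 334 CPM in resveratrol 1. Ccr2, the chemokine receptor gene of that list, measured 1.15, 72.9, 124, 10.1 and 89.8 CPM. Lipid-associated macrophage genes summed to 391.6, 7276, 6774, 934 and 5712 CPM. Cd36 alone made up 3171 and 3755 CPM of this in obesity and 353 and 3111 CPM with resveratrol. Cd9 made up 213 CPM in the control library. Eosinophil markers stayed between 0.209 and 5.04 CPM, and lymph node stroma genes between 3.39 and 41.7 CPM.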
